A study of Mus musculus with 7 samples.

Results

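The constitutive proteasome was examined through the genes whose symbols begin with *Psma*, *Psmb*, *Psmc* or *Psmd* and a number, or with *Psme1* to *Psme4*, leaving out the inducible subunits *Psmb8*, *Psmb9* and *Psmb10*. The pattern matched 41 of the 14819 rows of the count table, and all 41 were among the 14779 genes that passed the filter on expression. They comprise 15 genes of the 20S core, 21 named after the 19S cap and 5 named after the activators. The data were read counts per gene in primary hepatocytes, the main cells of the liver, isolated from male mice by collagenase perfusion and kept overnight in William's E medium with 10% fetal bovine serum and no treatment. Hepatocytes of WT mice (n = 4) were compared with those of WDR6-WKO mice (n = 3). The WDR6-WKO mice lack the WD40-repeat protein WDR6 in the whole body after CRISPR removal of exon 2 of *Wdr6*. Every cell type of these mice lacked the gene, and the study's methods give young C57BL/6J mice as the default, without an age or strain for these libraries in particular. The labels describe independent experiments but name no animal for a library, so p-values measure the spread between these samples.

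The proteasome is the protease that degrades most ubiquitin-tagged proteins. Its 20S core is a barrel of stacked rings, in which the α subunits (*Psma* genes) form the outer rings and the β subunits (*Psmb* genes) the inner rings. The catalytic sites lie in the β subunits encoded by *Psmb5* (chymotrypsin-like), *Psmb6* (caspase-like) and *Psmb7* (trypsin-like). The 19S cap recognises ubiquitin and unfolds the substrate, with a ring of ATPases (*Psmc* genes) and a set of scaffold, receptor and deubiquitinating subunits (*Psmd* genes). The *Psme* genes encode caps of another kind, PA28 and PA200, which open the core without ATP. When proteasomes fail, the transcription factor NRF1 (*Nfe2l1*) raises subunit genes together through antioxidant response elements. Some symbols of the pattern are not subunits. *Psmc3ip* encodes a recombination protein, *Psme2b* is a retrocopy of *Psme2*, and *Psmd5*, *Psmd9* and *Psmd10* encode chaperones of cap assembly.

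The sequences before the start sites were read first, because members of one complex could share elements there. RefSeq windows (build GRCm38.p6) of 250 bases before the RefSeq start were found for 34 of the 41 members. None was found for *Psma8*, *Psmb1*, *Psmb2*, *Psmb7*, *Psmc3*, *Psmd3* and *Psmd7*. GENCODE can place the start elsewhere, and by it the windows of *Psmd5*, *Psmd9*, *Psmd13* and *Psme1* lie wholly inside the gene. The core of the antioxidant response element is TGACNNNGC on either strand. It was found for 5 of the 34 members (14.7%) and in 10.2% of all 32851 RefSeq windows. In the core these were *Psmb5*, whose match begins 47 bases before the start, and *Psmb6*, whose match begins 9 bases before it. In the cap they were *Psmc6*, *Psmd9* and *Psmd12*. No activator (0 of 5) held it. The core of the interferon-stimulated response element was found in *Psmb3*, *Psmd4* and *Psmd9* (8.82% of the members and 2.98% of all windows). The gamma-activated site, TTCNNNGAA, was found for 0 of 34 members and in 7.02% of all windows, and CCAAT in 38.2% and 33.8%. Shares of members count a gene with a match in any of its windows, whereas the other shares are per window. *Psma6*, *Psmc2* and *Psme2* had more than a single window, so the shares are not fully alike. A match is a description of letters and not of a bound site.

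The windows are shown for *Psmb5* and *Psmb6*, which encode catalytic subunits, and for *Psmb3*, *Psmc1* and *Psme4*, which differed between the genotypes. They are given 5′ to 3′ on the strand of the gene, without bases that GENCODE places inside the gene, and capitals mark matches to TGACNNNGC in *Psmb5* and *Psmb6* and, on the opposite strand, to the interferon-stimulated response element core in *Psmb3*.
Psmb5, chr14:54618023-54618245, minus strand: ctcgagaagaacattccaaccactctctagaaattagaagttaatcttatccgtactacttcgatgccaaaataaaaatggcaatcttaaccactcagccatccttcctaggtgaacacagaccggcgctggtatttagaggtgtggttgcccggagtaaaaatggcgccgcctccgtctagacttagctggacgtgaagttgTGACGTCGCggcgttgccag
Psmb6, chr11:70525107-70525356, plus strand: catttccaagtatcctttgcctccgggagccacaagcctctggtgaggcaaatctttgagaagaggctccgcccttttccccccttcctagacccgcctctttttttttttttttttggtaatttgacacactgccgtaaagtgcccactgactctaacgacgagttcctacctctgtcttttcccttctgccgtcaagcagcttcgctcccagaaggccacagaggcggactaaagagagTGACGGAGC
Psmb3, chr11:97703184-97703398, plus strand: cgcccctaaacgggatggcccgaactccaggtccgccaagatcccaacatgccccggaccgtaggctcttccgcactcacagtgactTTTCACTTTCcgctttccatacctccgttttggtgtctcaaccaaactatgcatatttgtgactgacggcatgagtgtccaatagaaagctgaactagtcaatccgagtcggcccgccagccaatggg
Psmc1, chr12:100109952-100110153, plus strand: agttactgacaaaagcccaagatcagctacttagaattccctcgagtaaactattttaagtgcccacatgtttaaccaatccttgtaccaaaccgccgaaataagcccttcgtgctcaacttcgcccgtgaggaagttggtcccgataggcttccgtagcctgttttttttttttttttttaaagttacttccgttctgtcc
Psme4, chr11:30771525-30771725, plus strand: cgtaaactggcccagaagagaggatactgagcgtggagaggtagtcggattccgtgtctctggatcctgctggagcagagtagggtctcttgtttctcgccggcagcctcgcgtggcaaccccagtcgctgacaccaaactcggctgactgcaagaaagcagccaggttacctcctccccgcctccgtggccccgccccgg
The matches in *Psmb5* and *Psmb6* read TGACGTCGC and TGACGGAGC, and the windows of *Psmc1* and *Psme4* held neither element.

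The labels were checked on *Wdr6* itself, which fell from 44.0 ± 4.03 CPM (mean ± s.d., n = 4) in WT to 2.38 ± 0.179 CPM (n = 3) in WDR6-WKO (adjusted p = 3.44e-12). CPM are counts brought to a common library total with TMM factors. Every adjusted p here is from the quasi-likelihood test of edgeR, with Benjamini-Hochberg adjustment across the 14779 genes tested. The libraries held 17816913 to 23668940 reads on genes. Hepatocyte markers were present in every library. Their sum was 10710 to 12720 CPM in WT and 9574 to 10240 CPM in WDR6-WKO, with 1 of 10 markers higher and 4 lower. The sum of 12 Kupffer cell markers was 860 to 939 CPM in WT and 993 to 1191 CPM in WDR6-WKO, with 3 higher and 0 lower, and that of 5 cholangiocyte markers 3068 to 3360 CPM against 3713 to 4306 CPM, with 2 higher and 0 lower. Sums of 8 endothelial markers (380 to 433 CPM in WT, 358 to 423 CPM in WDR6-WKO) and of 9 stellate cell markers (629 to 691 CPM and 665 to 725 CPM) overlapped, with 0 and 2 markers called. Of 4 lymphocyte markers only *Ptprc* was tested, and *Cd3e*, *Cd79a* and *Nkg7* were not among the genes tested. The part of these cells in the results below was not tested. In bulk RNA, fewer cells of a type and less RNA per cell cannot be told apart.

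The 41 members as a whole had nearly the same RNA level in both genotypes. The counts of the 41 members summed to 5037 ± 23.7 CPM in WT and 5160 ± 108 CPM in WDR6-WKO, which is 102% of WT. *Psmb3*, *Psmb7* and *Psmc1* rose, *Psme4* fell, and the other 37 members did not pass the test. Among all genes tested, 6.65% rose and 6.18% fell at the same threshold, an adjusted p below 0.05, against 3 and 1 of 41 members. With the study's thresholds for DEGs, a log2 fold change of 0.35 or more in either direction with an unadjusted p under 0.05, the count was 0 of 41 members against 10.4% of all genes tested. An unadjusted p under 0.05 was reached by 11 of 41 members, where the share over all genes was 28.1%. The fitted log2 fold changes ran from −0.24 to 0.29 with standard errors of 0.04 to 0.24, and their median was 0.07 against 0.01 over all genes. The CPM ranges of the genotypes did not overlap for 6 members (*Psmb1*, *Psmb2*, *Psmc1* and *Psmc4* higher, *Psmd13* and *Psme4* lower), where the share over all genes was 23.5%.

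**Figure D1:**
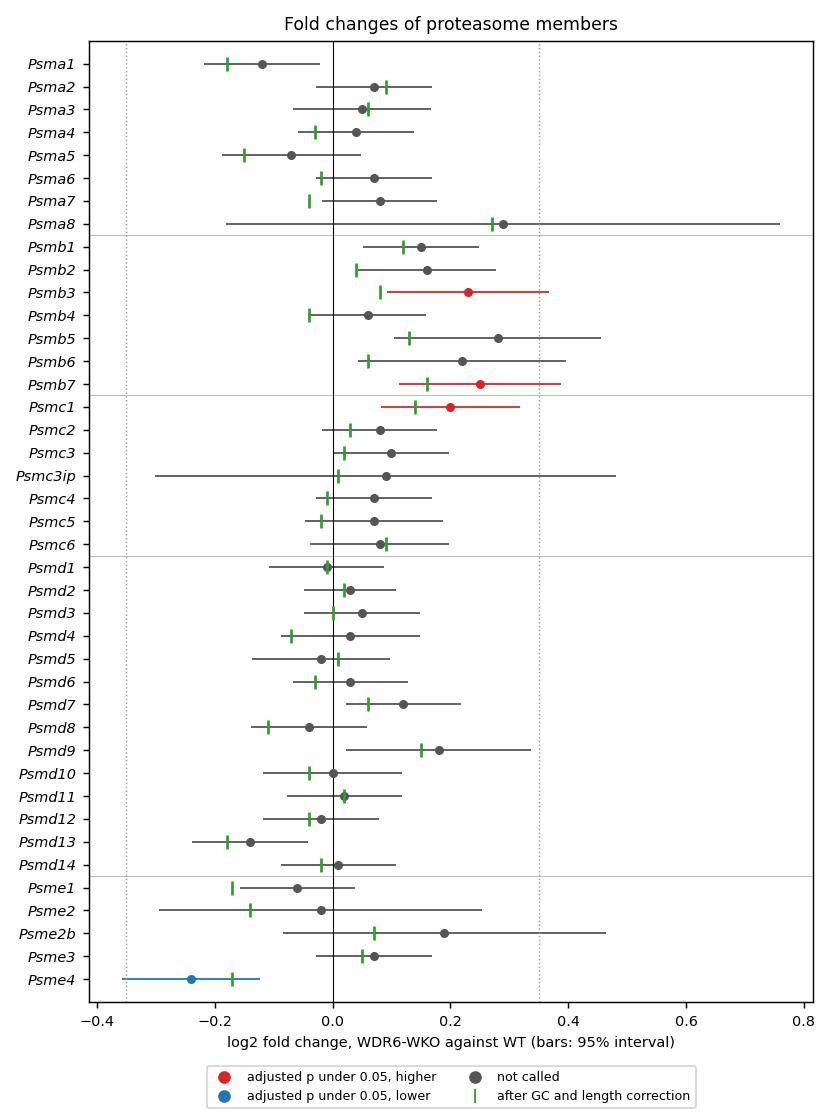
Fitted log2 fold change of each proteasome member, WDR6-WKO (n = 3) against WT (n = 4). Bars give an approximate 95% interval from the normal distribution, which is narrower than the test allows. Dotted lines mark the study's fold change threshold of 0.35, and green ticks the values corrected for GC content and length. *Psmb3*, *Psmb7* and *Psmc1* (red) lie above 0 and *Psme4* (blue) below it, and no member's point reaches 0.35.

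The parts of the complex are described apart. The 8 α ring genes summed to 744 ± 9.73 CPM in WT and 752 ± 13.1 CPM in WDR6-WKO (101% of WT). The 7 β ring genes summed to 708 ± 8.67 CPM and 797 ± 70.8 CPM (113%). The 6 ATPase genes of the cap summed to 748 ± 11.1 CPM and 803 ± 24.8 CPM (107%), and the 14 *Psmd* genes to 2309 ± 13.0 CPM and 2313 ± 29.4 CPM (100.2%). The 5 activator genes summed to 526 ± 18.4 CPM and 493 ± 17.3 CPM (93.7%). The s.d. of the β ring was wider in WDR6-WKO than in WT. The β ring summed to 716, 699, 702 and 714 CPM in WT replicates 1 to 4 and to 811, 860 and 720 CPM in WDR6-WKO replicates 1 to 3. WDR6-WKO replicates 1 and 2 were well above all WT libraries, and replicate 3 was just above the highest of them.

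**Figure D2:**
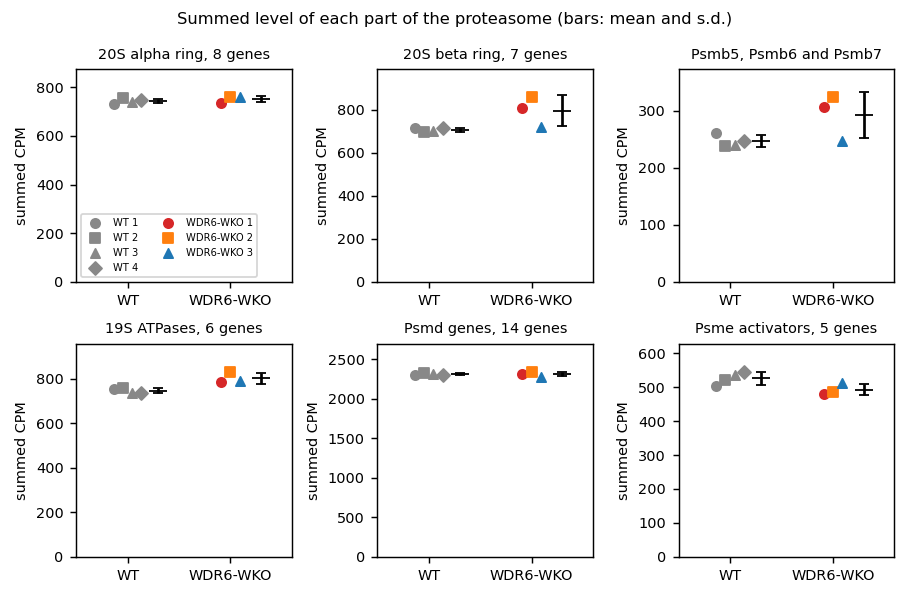
Summed CPM of 6 groups of proteasome genes in each library (vertical axes start at 0), with the mean and s.d. of each genotype beside the points. WDR6-WKO replicates 1 and 2 lie above WT for the β ring (811 and 860 CPM) and for *Psmb5*, *Psmb6* and *Psmb7* together, and replicate 3 (blue triangle) lies near WT.

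In the α ring, 0 of 8 genes passed the test, with log2 fold changes around a median of 0.06. *Psma1* was at −0.12 (SE 0.05, adjusted p = 0.17) and *Psma5* at −0.07 (SE 0.06, adjusted p = 0.481). The largest value of all members belonged to *Psma8*, a testis-specific α subunit, at 0.29 (SE 0.24, adjusted p = 0.457). It had only 1.01 to 1.79 CPM over all libraries, and its standard error was the largest.

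All 7 β ring genes had positive log2 fold changes, with a median of 0.22, and *Psmb3* and *Psmb7* passed the test. After the correction for GC content and length described below, *Psmb4* was at −0.04 and the other 6 stayed positive. *Psmb7* (GRCm38, chr2:38588036-38644087, minus strand), the trypsin-like subunit, had 88.1, 80.8, 83.4 and 84.4 CPM in WT replicates 1 to 4 and 103, 108 and 87.6 CPM in WDR6-WKO replicates 1 to 3. WDR6-WKO replicate 3 lay below WT replicate 1, so the groups overlapped. The log2 fold change was 0.25 (SE 0.07, adjusted p = 0.0255), and an exact two-sided permutation test gave p = 0.0571, where the smallest value this design allows is 0.0286. *Psmb3* (chr11:97703399-97713500, plus strand), a structural β subunit, had 81.1, 74.6, 77.4 and 81.3 CPM in WT and 94.0, 103 and 80.1 CPM in WDR6-WKO. Again replicates 1 and 2 were above all WT libraries and replicate 3 was among them. The log2 fold change was 0.23 (SE 0.07, adjusted p = 0.0466, exact permutation p = 0.0857).

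*Psmb5* (chr14:54614119-54618022, minus strand), the chymotrypsin-like subunit and the main target of bortezomib, had 83.5, 74.8, 70.1 and 77.1 CPM in WT and 96.7, 104 and 77.2 CPM in WDR6-WKO. Its log2 fold change of 0.28 (SE 0.09) did not pass the test (adjusted p = 0.0581, exact permutation p = 0.114). *Psmb6* (chr11:70525367-70527858, plus strand), the caspase-like subunit, had 89.7, 81.9, 86.0 and 85.6 CPM in WT and 107, 111 and 81.8 CPM in WDR6-WKO. Its log2 fold change was 0.22 (SE 0.09, adjusted p = 0.112, exact permutation p = 0.2). In both genes WDR6-WKO replicate 3 lay within or below the WT range. Together the catalytic genes had median deviations from the WT mean of 0.31, 0.37 and 0.02 on the log2 scale in WDR6-WKO replicates 1 to 3.

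**Figure D3:**
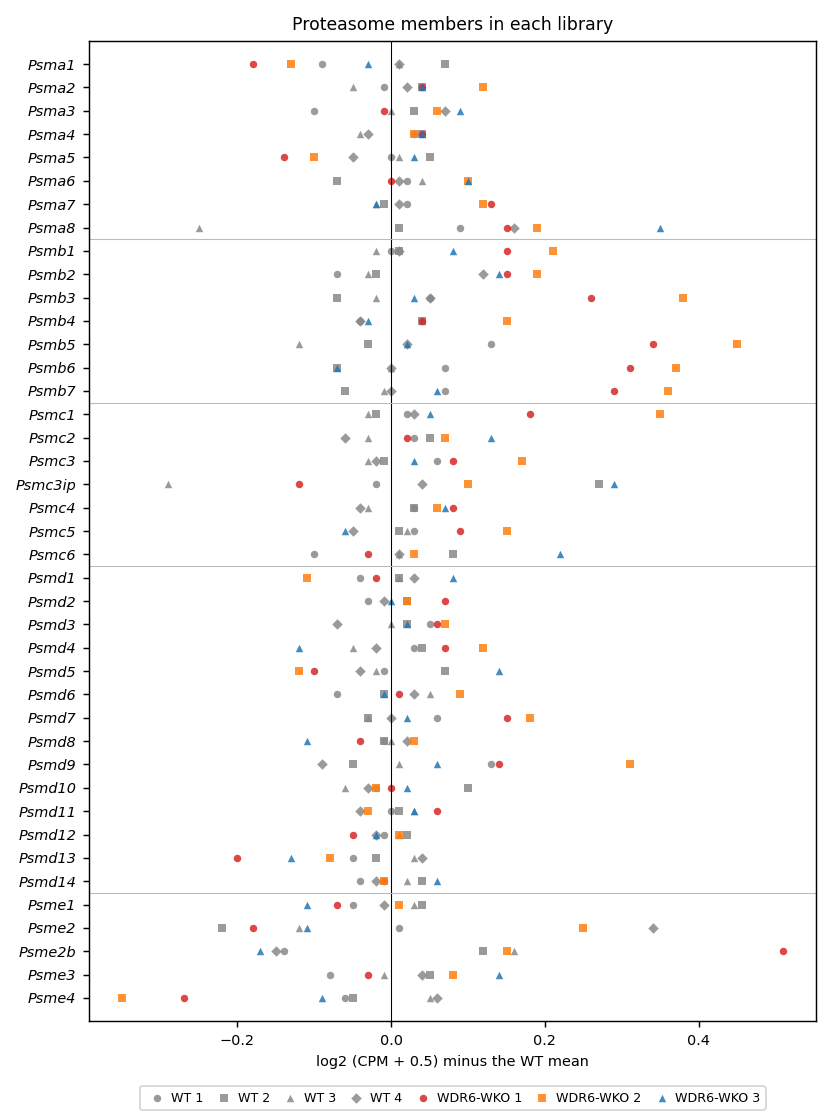
Log2 of CPM plus 0.5 minus the mean of the 4 WT libraries, for each of the 41 members and each of the 7 libraries. For the catalytic genes the medians were 0.31 and 0.37 in WDR6-WKO replicates 1 and 2 (red and orange) and 0.02 in replicate 3 (blue).

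The β ring result moved with the library and with properties of the transcripts. Without WDR6-WKO replicate 3, 12 members were higher (*Psma7*, *Psmb1*, *Psmb2*, *Psmb3*, *Psmb5*, *Psmb6*, *Psmb7*, *Psmc1*, *Psmc3*, *Psmd7*, *Psmd9* and *Psme2b*) and 3 lower (*Psma1*, *Psmd13* and *Psme4*), while 28.6% of all genes tested were called. Without replicate 1 or replicate 2 of WDR6-WKO, 0 members passed in either direction, and the share of all genes called also fell, from 12.8% to 7.98% and 6.98%. Without WT replicate 2 or WT replicate 3 the higher count was 0 (8.74% and 8.21% of all genes called), and without WT replicate 4 it was 1 (*Psmb2*, with 8.03% of all genes called). Replicates 1 and 2 of WDR6-WKO also carried more reads on short and GC-rich transcripts. Among genes above 10 CPM, the 1862 lowest in GC content had median deviations of −0.11, −0.11 and 0.07 in WDR6-WKO replicates 1 to 3, and the 1858 highest 0.09, 0.10 and −0.09. The 1862 shortest had 0.09, 0.15 and −0.00, and the 1858 longest −0.08, −0.13 and −0.01. The β ring transcripts had a median length of 899 bases and a median GC content of 52.2%, against 1540 bases and 49.5% over all members. Over the 41 members, which share their libraries, the difference of WDR6-WKO replicate 3 from the mean of replicates 1 and 2 had a Pearson correlation of −0.56 (Spearman −0.62) with GC content and of 0.58 (Spearman 0.52) with length.

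After each library was corrected for GC content and length, the β ring had a median of 0.08 on the log2 scale. This alternative was chosen after seeing the data. *Psmb7* was at 0.16 (adjusted p = 0.034) and *Psmc1* at 0.14 (adjusted p = 0.0355), while *Psmb3* was at 0.08 (adjusted p = 0.28) and *Psmb5* at 0.13 (adjusted p = 0.0636). Then 2 members were higher and 5 lower (*Psma1*, *Psmd8*, *Psmd13*, *Psme1* and *Psme4*), with 18.3% of all genes called. With the replicate number as a block 5 members were higher, adding *Psmb2* and *Psmb5* (adjusted p = 0.0133), and 1 lower, with 11.9% of all genes called. With the block and the correction together 0 were higher and 4 lower, with 15% of all genes called, and the values of *Psmb7* and *Psmc1* were 0.16 (adjusted p = 0.0591) and 0.15 (adjusted p = 0.0512).

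**Figure D4:**
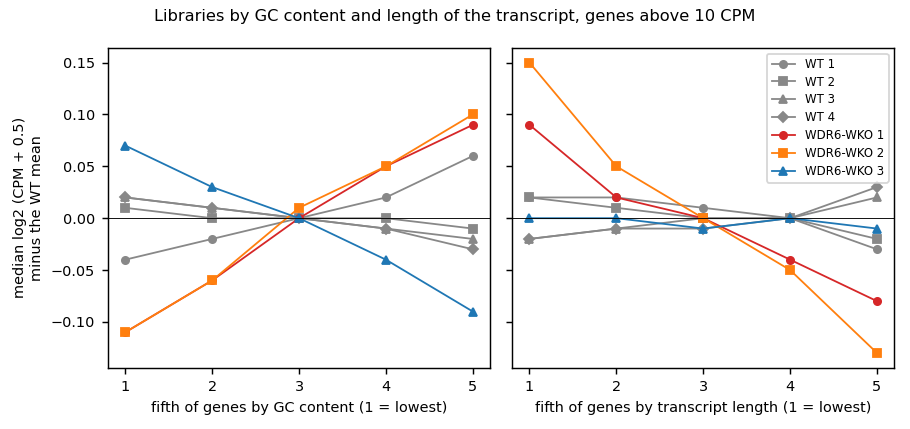
Median log2 deviation from the WT mean of genes above 10 CPM, in 5 bins of nearly equal size by GC content (left) and by transcript length (right), with a line for each library. WDR6-WKO replicates 1 and 2 rise with GC content from −0.11 to 0.09 and 0.10 and replicate 3 falls from 0.07 to −0.09.

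Reads of some β ring genes can be counted on other genes. *Psmb3* shared 55.8% of its 50-base sequences with transcripts of other genes, chiefly pseudogenes, *Psmb5* shared 57.1%, *Psmc1* 17.6% and *Psmb7* 28.1%. The last lies in an exon overlap of 405 bases with *Nek6* on the opposite strand, and reads of an overlap cannot be assigned without strand. Among the 26 members that shared at most 5%, 0 were higher and *Psme4* was lower. The values of the 3 higher genes are therefore uncertain. The core median was 0.08 with and without the members that shared more. *Psmb6* (2.67% shared), *Psmb1* (2.81%) and *Psmb2* (0%), which did not pass the test, had log2 fold changes of 0.22, 0.15 and 0.16. After the correction for GC content and length these were 0.06 (adjusted p = 0.412), 0.12 (adjusted p = 0.0588) and 0.04 (adjusted p = 0.698).

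In the 19S cap, 1 of 21 members was higher and 0 lower, and the median was 0.03 on the log2 scale. The ATPase genes, whose products form the unfolding ring, had positive values in 6 of 6 (median 0.08), of which *Psmc4* (−0.01) and *Psmc5* (−0.02) turned negative after the correction for GC content and length. *Psmc1* (chr12:100110154-100123405, plus strand), the Rpt2 ATPase, had 149, 145, 144 and 150 CPM in WT and 166, 187 and 152 CPM in WDR6-WKO. Every WDR6-WKO library was above every WT library, by the least in replicate 3. The log2 fold change was 0.20 (SE 0.06, adjusted p = 0.0463, exact permutation p = 0.0286, the smallest possible). Of the 14 *Psmd* genes 0 passed in either direction, with a median of 0.02 and values from −0.14 to 0.18. *Psmd13*, a scaffold subunit, had 125, 128, 132 and 134 CPM in WT and 113, 123 and 118 CPM in WDR6-WKO. These ranges did not overlap, but the log2 fold change of −0.14 (SE 0.05) had an adjusted p of 0.0942. It shared 15.8% of its sequence, in an overlap of 342 bases with *Sirt3*. *Psmd7*, another scaffold subunit, had 133, 125, 125 and 128 CPM in WT and 142, 145 and 129 CPM in WDR6-WKO, with WDR6-WKO replicate 3 inside the WT range. Its log2 fold change was 0.12 (SE 0.05, adjusted p = 0.154).

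Among the activators, *Psme4* fell and the others did not pass the test. *Psme4* (chr11:30771726-30880361, plus strand) encodes PA200, a large monomeric cap known for binding acetylated histones. It had 248, 249, 268 and 269 CPM in WT and 214, 202 and 242 CPM in WDR6-WKO. The highest WDR6-WKO library, replicate 3, was below the lowest WT library. The log2 fold change was −0.24 (approximate 95% interval −0.35 to −0.12, adjusted p = 0.0176, exact permutation p = 0.0286), which is 84.9% of WT. After the correction for GC content and length it was −0.17 (SE 0.04, adjusted p = 0.00178). Its transcript of 6491 bases, the length at which WDR6-WKO replicates 1 and 2 had fewer reads, shared none of its 50-base sequences with other genes. The call was lost without WDR6-WKO replicate 1 (−0.22, adjusted p = 0.0784) or replicate 2 (−0.18, adjusted p = 0.0965) and without WT replicate 3 (−0.22, adjusted p = 0.0671) or replicate 4 (−0.22, adjusted p = 0.0689). Without WDR6-WKO replicate 3 the value was −0.31 (adjusted p = 2.7e-06).

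The PA28 genes did not pass the test. *Psme1* (PA28α) had 76.2, 81.1, 80.6 and 78.3 CPM in WT and 75.3, 79.4 and 73.1 CPM in WDR6-WKO (log2 fold change −0.06, SE 0.05, adjusted p = 0.532). After the correction for GC content and length it was −0.17 (adjusted p = 0.0208). *Psme3* (PA28γ, the nuclear form) had 129, 141, 136 and 141 CPM in WT and 134, 144 and 151 CPM in WDR6-WKO (0.07, SE 0.05, adjusted p = 0.464). *Psme2* (PA28β) had 30.6, 26.1, 28.0 and 38.6 CPM in WT and 26.9, 36.5 and 28.2 CPM in WDR6-WKO (−0.02, SE 0.14, adjusted p = 0.961). It shared 59.3% of its 50-base sequences with *Psme2b*, so the counts of both are uncertain. Their sum was 52.0 ± 3.88 CPM in WT and 54.5 ± 6.89 CPM in WDR6-WKO.

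Levels of the members can be compared with each other only per length of transcript. In WT the level per kilobase had a median of 90.2 CPM in the 20S core, 66.5 CPM in the 19S cap and 39.8 CPM among the activators. The order began with *Psmd8* (363 CPM per kilobase), a lid subunit, followed by *Psmb4* (161), *Psma7* (143), *Psmd2* (130) and *Psma1* (125), and ended with *Psmd9* (8.97), *Psmc3ip* (1.97) and *Psma8* (0.774). The ratio of the core median to the cap median was 1.36, and 1.16 with the shortest coding transcript of each gene. The order is a description, with lengths from GENCODE.

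**Figure D5:**
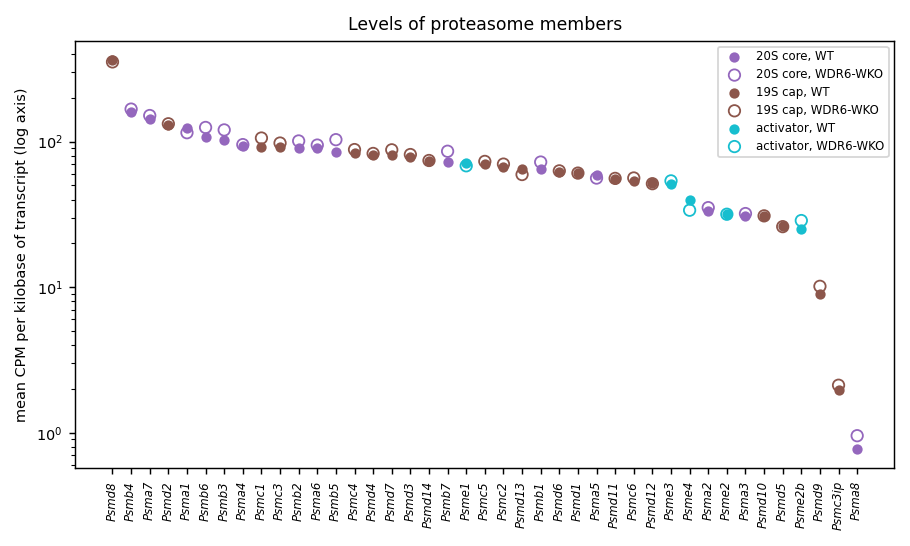
Mean level of each member in WT (filled) and WDR6-WKO (open) in CPM per kilobase of transcript, on a log axis and ordered by the WT level. *Psmd8* is highest at 363 in WT and *Psma8* lowest at 0.774.

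Other genes of the pathway were read in the same fit. The NRF1 axis had 3 of 7 genes higher and 3 lower, with a median of 0.18 and with *Maff* (0.27, adjusted p = 0.0617) not called. *Nfe2l1*, the transcription factor itself, had 162 to 172 CPM in WT and 209, 220 and 177 CPM in WDR6-WKO (log2 fold change 0.27, SE 0.06, adjusted p = 0.0107). Its small MAF partners *Mafk* (0.38, SE 0.07, adjusted p = 0.00318) and *Mafg* (0.18, SE 0.06, adjusted p = 0.0485) were higher, and *Mafg* had an adjusted p of 0.0556 with the replicate block. The genes for enzymes that release and process NRF1 were lower. These were *Ddi2*, the protease that cleaves it (−0.24, SE 0.05, adjusted p = 0.00635), *Ngly1*, which removes its sugars (−0.22, SE 0.07, adjusted p = 0.0452), and *Vcp*, which extracts it from the membrane (−0.19, SE 0.05, adjusted p = 0.0239). Calls for *Mafk* and *Ddi2* held in 16 of 16 alternatives, for *Nfe2l1* in 14, *Vcp* in 11, *Ngly1* in 9 and *Mafg* in 6. *Vcp* shared 64.6% of its 50-base sequences with other genes, chiefly *Vcp-rs*, and *Ddi2* shared 17.9% with the overlapping *Rsc1a1*, so their values are uncertain too.

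Among 11 genes for proteins that bind the proteasome, 0 were higher and 1 was lower (median −0.02). This was *Ubqln2*, a shuttle that brings ubiquitinated proteins to the cap. It had 354, 349, 300 and 322 CPM in WT and 259, 233 and 254 CPM in WDR6-WKO, with no overlap (log2 fold change −0.41, SE 0.06, adjusted p = 3.32e-04). The call held in 16 of 16 alternatives. *Adrm1* and *Sem1* of this list encode cap subunits too, but their symbols fall outside the pattern. *Sem1* had 34.8, 37.1, 28.3 and 33.7 CPM in WT and 46.8, 51.9 and 34.9 CPM in WDR6-WKO. Its log2 fold change of 0.42 (SE 0.13, adjusted p = 0.058) did not pass the test. *Adrm1*, which shared 78.0% of its 50-base sequences, was at 0.08 (adjusted p = 0.477). By the study's thresholds *Sem1* and *Ubqln2* were DEGs (2 of 11, where the share over all genes was 10.4%). Of 5 core assembly genes tested, 0 passed in either direction (median 0.08). Of 4 ubiquitin genes, *Ubb* was higher at 0.20 (SE 0.04, adjusted p = 0.00787) and 0 were lower. *Ubb* shared 55.4% of its 50-base sequences with other genes, and its value is uncertain.

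The inducible immunoproteasome subunits, which replace the catalytic β subunits in cells under interferon, did not pass the test. *Psmb8*, *Psmb9* and *Psmb10* had log2 fold changes of 0.37 (adjusted p = 0.0886), 0.32 (adjusted p = 0.166) and 0.25 (adjusted p = 0.0829). By the study's thresholds *Psmb8* was a DEG (1 of 3, where the share over all genes was 10.4%). After the correction for GC content and length *Psmb8* was at 0.28 (adjusted p = 0.0486, and 0.0557 with the block too). *Psmb9* was then at 0.21 (adjusted p = 0.277) and *Psmb10* at 0.15 (adjusted p = 0.11). Exons of *Psmb8* overlap *Gm20496* by 498 bases and those of *Psmb9* overlap *Tap1* by 212 bases, both on the opposite strand, so their values are uncertain. The median deviations of the inducible subunits in WDR6-WKO replicates 1 to 3 were 0.36, 0.48 and −0.02. In the same libraries 11 of 12 interferon signalling genes were higher and 0 lower, with median deviations of 0.86, 0.86 and 0.66. That list was chosen with earlier results of these data known, so its count is no independent evidence.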

How the data were processed

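The authors aligned reads of 7 libraries to the mouse genome (mm10, which is GRCm38) with Bowtie2 2.2.3 and deposited a table of raw counts per gene symbol without normalization. The counting tool, annotation, strand setting and filter on low counts are not given in the sources used here. From these counts, edgeR 4.0.16 in R 4.3.3 gave TMM-scaled CPM and a robust quasi-likelihood test of WDR6-WKO (n = 3) against WT (n = 4), with Benjamini-Hochberg adjustment across the 14779 genes that passed its expression filter. Genes with an adjusted p under 0.05 were called. The F statistic of each gene gave the standard error of its log2 fold change. Intervals were taken from this error with the normal distribution and are somewhat too narrow. For *Psmd9* the interval of 0.01 to 0.34 leaves out 0, while the unadjusted p of the quasi-likelihood test was 0.0506. The libraries held 17816913 to 23668940 counts, and the biological coefficient of variation was 7.40%. No libraries of one genotype agreed within sampling noise.

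The members and lists were chosen with earlier results of these data known. Given in full were *Psmb5* to *Psmb7*, *Psme1* to *Psme4* and the members with the 3 smallest p in the core and in the cap. The members with the 5 largest and 5 smallest log2 fold changes were named with values, and genes of other lists where called or where a result turned on them. *Psmb8*, *Psmb9*, *Psmb10*, *Adrm1* and *Sem1* were named after their values were seen.

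Replicate numbers in the labels run through both genotypes. The deviations of libraries with the same number from their group means had correlations of 0.201, 0.106 and 0.173, so a fit with the number as a block is given where it changes a call. Whether the numbers mark a shared day is not given in the sources used here. Libraries with different numbers had correlations from −0.359 to 0.325, and after the correction for GC content and length those with the same number had 0.0123, 0.0871 and 0.0505, so the pairing is uncertain. WT replicate 4 has no partner in that fit. The other alternatives were DESeq2 1.42.0, limma-voom (limma 3.58.1), median-of-ratios or no scaling factors, no filter, at least 10 counts in every library, each library left out, the study's thresholds and, chosen after seeing the data, a loess correction for GC content and length, also with the block. Lengths, GC content, exon overlaps and shared 50-base sequences came from GENCODE for GRCm38.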

Additional observations from a re-analysis of the deposited data

Results flagged for a closer look

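Of the 41 members tested for a WT library far from the other WT libraries, 1 was found, and chance gives about 1 in 20 groups. The 3 WDR6-WKO libraries were not tested in this way. *Psmd8*, a lid subunit, had 568 CPM in WT replicate 4 against 555 to 557 CPM in the other WT libraries. The gap to the nearest library was 0.84 of the range, above Dixon's 95% critical value for 4 libraries.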

How the results depend on the processing

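The count of genes called was 1897 and ranged from 1032 to 4233 with single libraries left out. The count of members higher was 3, and became 6 with library size alone, 1 with limma-voom, 5 with the replicate block, 0 with the study's thresholds, 0 without members that shared over 5% of their sequence, 0 with GC and length correction together with the block, and 0 to 12 with single libraries left out. The count of members lower was 1, and became 5 with the GC and length correction, 4 with that correction and the block, 0 with the study's thresholds and 0 to 3 with single libraries left out. The median log2 fold change of the 20S core was 0.08 and ranged from 0.06 to 0.12 with single libraries left out. That of the 19S cap was 0.03, and 0.06 with library size alone, −0.00 with the GC and length correction and −0.01 with that correction and the block. That of the activators was −0.02, and −0.14 with the GC and length correction, 0.08 with the replicate block and −0.09 to 0.08 with single libraries left out. *Psme2*, at −0.02, changed sign to 0.01 with library size alone, to 0.10 with the block, and, with single libraries left out, ranged from −0.17 to 0.11, with 0.07 without WDR6-WKO replicate 1 and 0.03 without WDR6-WKO replicate 3. The ratio of core to cap levels was 1.16 with the shortest coding transcripts. Beyond *Psmb2*, *Psmb5* and *Mafg*, the block changed no other call among the members and the 25 named genes counted next. *Adrm1* and *Sem1* were not followed under alternatives. Of the 400 values of 25 named genes under alternatives, 324 kept their direction and call, 52 lost a call, 19 gained one and 5 changed sign. The cause was not tested. Counts give intervals for the spread between libraries and not for reads shared with other genes.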
